A study of Homo sapiens with 4 samples.

Results

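The ribosomal protein pseudogenes are the subject of these results: of 1895 genes listed under a ribosomal protein pseudogene name and not typed as mRNA in the files, 390 reached an RPKM of at least 1 in at least 2 of the 4 libraries. RPKM is the number of reads scaled by gene length and by the library's total. A comparison of this level between genes depends on the length used for each. The 390 members were therefore chosen on their measured levels, and a high level of a member is a property of the choice. Of the other name matches, 712 were listed at 0 in every library and 793 were above 0 but under the rule. The members belonged to 77 parent genes, with 228 members derived from proteins of the large ribosomal subunit and 162 from proteins of the small subunit, and they stood among 40205 genes listed and 13885 genes that passed the same RPKM filter.

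The 4 libraries came from human lung carcinoma cells 24 h after transfection, 2 with negative control siRNA (NC 1 and NC 2) and 2 with siRNA against circZFR (si-circZFR 1 and si-circZFR 2), a circular RNA made from exons of ZFR. The series design names A549 cells and the sample labels name H1299 cells. CDKN2A, which is deleted in A549, was listed at 0 in all 4 libraries, and AKR1B10, an enzyme abundant in A549, had 1271 to 1747 RPKM. Nothing in the labels says that the libraries of a group came from separate cultures, so p-values measure only the spread between these libraries. ZFR itself had 25.5 and 28.8 RPKM in the NC libraries and 5.35 and 5.13 RPKM in the si-circZFR libraries, a log2 fold change (log2FC) of -2.33 ± 0.18 (SE, n = 2 per group; limma, adjusted p = 0.0402). Library totals ran from 11040050 to 12816868 reads.

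Most pseudogenes of this kind are processed pseudogenes. They arise when the machinery of LINE-1 retrotransposons copies a spliced mRNA back into the genome, so they lack the introns of the parent and usually its promoter, and mutations accumulate in their reading frame. Ribosomal protein mRNAs are among the most abundant mRNAs of a cell and are the richest source of such copies in the human genome. A short read from a young copy can match the parent mRNA and other copies equally well, and how such reads were assigned here is not given in the sources used. The level of any pseudogene that closely resembles its parent, and of that parent, is therefore uncertain.

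The first 90 coding bases of 3 parents are printed with the same stretch of some of their members, because the families hold members that the parent sequence alone cannot tell apart and members that it can. Capitals mark bases that differ from the parent. Parent sequences are the MANE Select transcripts of GENCODE v44, and pseudogene sequences are from hg38 at RefSeq positions on GRCh38.p14.

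RPL13A encodes a large subunit protein. RPL13AP5 matched it at all 90 bases (chr10:96750288-96750377, plus strand). RPL13AP25 (chr13:54441226-54441315, minus strand) and RPL13AP14 (chr5:83746900-83746989, minus strand) each differed at 1 base, and RPL13AP24 (chr12:3072059-3072148, minus strand) differed at 4 bases, the start codon included.
RPL13A: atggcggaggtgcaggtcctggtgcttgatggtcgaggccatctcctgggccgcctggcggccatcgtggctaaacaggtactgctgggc
RPL13AP5: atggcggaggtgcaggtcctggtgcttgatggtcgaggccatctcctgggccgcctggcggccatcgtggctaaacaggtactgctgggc
RPL13AP25: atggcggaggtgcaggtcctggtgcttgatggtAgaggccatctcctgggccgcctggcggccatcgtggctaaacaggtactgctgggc
RPL13AP14: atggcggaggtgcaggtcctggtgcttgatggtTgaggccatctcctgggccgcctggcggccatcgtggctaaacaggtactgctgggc
RPL13AP24: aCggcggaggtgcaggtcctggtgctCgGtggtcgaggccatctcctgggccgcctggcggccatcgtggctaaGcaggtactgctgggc

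RPS26 encodes a small subunit protein. RPS26P25 matched it at all 90 bases (chr4:113214304-113214393, minus strand), and RPS26P58 (chrX:24429831-24429920, minus strand) and RPS26P50 (chr15:64592979-64593068, plus strand) each differed at 1 base.
RPS26: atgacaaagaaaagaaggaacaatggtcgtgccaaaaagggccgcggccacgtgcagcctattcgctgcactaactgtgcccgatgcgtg
RPS26P25: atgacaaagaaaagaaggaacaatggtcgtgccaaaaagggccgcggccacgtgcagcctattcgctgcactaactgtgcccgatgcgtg
RPS26P58: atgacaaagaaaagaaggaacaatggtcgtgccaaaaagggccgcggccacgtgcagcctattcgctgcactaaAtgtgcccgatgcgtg
RPS26P50: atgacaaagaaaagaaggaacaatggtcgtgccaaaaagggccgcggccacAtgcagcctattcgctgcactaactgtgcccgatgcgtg

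RPL21 encodes a large subunit protein. RPL21P16 matched it at all 90 bases (chr10:120355094-120355183, minus strand). RPL21P28 (chr1:212051917-212052006, minus strand) differed at 1 base and RPL21P101 (chr12:43561208-43561297, minus strand) at 6 bases.
RPL21: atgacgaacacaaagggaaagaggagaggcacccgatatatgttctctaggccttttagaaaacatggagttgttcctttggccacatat
RPL21P16: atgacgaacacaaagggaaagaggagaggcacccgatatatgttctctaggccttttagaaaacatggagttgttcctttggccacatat
RPL21P28: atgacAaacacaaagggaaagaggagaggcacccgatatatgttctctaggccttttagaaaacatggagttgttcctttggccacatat
RPL21P101: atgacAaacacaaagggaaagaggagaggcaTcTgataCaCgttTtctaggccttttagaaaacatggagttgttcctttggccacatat

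The pseudogenes listed at high levels were those most like their parents, a property that the choice of members did not use. Identity was the share of matching bases over all local alignments of a pseudogene to its parent's mRNA, on the strand of the best alignment. The median identity was 94.5% over 387 members with a position and 86.6% over 1496 name matches under the rule. Among 69 aligned name matches with an identity of 98% or more, 65 (94.2%) were members, against 106 of 150 (70.7%) at 95% to under 98%, 152 of 499 (30.5%) at 90% to under 95% and 44 of 533 (8.26%) at 85% to under 90%. The median level over the name matches rose along the same classes, from 0.0519 RPKM at 85% to under 90%, through 0.354 and 3.27 RPKM, to 50.9 RPKM at 98% or more. Over the 1883 aligned name matches, Spearman's rho between identity and level was 0.71, given as a description across genes that share parents, libraries and reads.

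**Figure D1:**
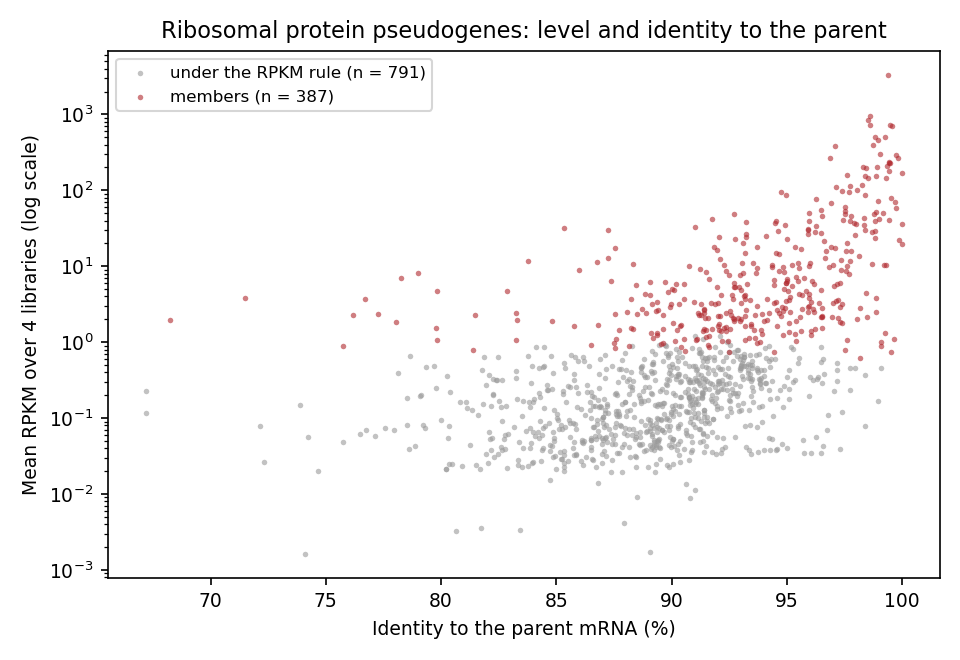
Each point is a ribosomal protein pseudogene listed above 0, with identity to the parent mRNA (%) on the x axis and mean RPKM over the 4 libraries (log scale) on the y axis. The 387 members (red) rise toward the right edge, and the 791 pseudogenes under the RPKM rule (grey) lie mostly at lower identities.

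An open reading frame near the parent's coding length was found more often among the members than among the pseudogenes under the rule. Whether it was the parent's own frame was not checked. The longest open reading frame was within 5% of the length of the parent's coding sequence in 112 of 387 members (28.9%) and in 90 of 1496 name matches under the rule (6.02%). In 3 members, RPL36AP37, RPS26P25 and RPL21P16, the aligned stretch was 100% identical to the parent mRNA. At the other end, 69 members shared no stretch of 50 bases with their parent, so such a read from the parent could not match them without a mismatch. For 385 of the 387 aligned members the best match among ribosomal protein mRNAs was the gene they are named after. The exceptions were RPL32P3, which matched RPL14 best, and RPL7P22, which matched RPL7L1 best.

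Levels among the members were very uneven. Mean RPKM over the libraries ran from 0.616 to 3337, with a median of 4.56. Only 33 members had a mean of 100 RPKM or more, 104 had 10 to under 100 RPKM and 253 had less than 10 RPKM. The 15 highest held 59.1% of the members' summed RPKM, and RPL13AP5 alone held 18.3%. Depth followed the level: the members' total over the 4 libraries ran from 11 to 105436 reads with a median of 137.5, and 16 members had fewer than 20 reads.

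The edge of the rule cut through pseudogenes with like values. Just inside, RPL21P93 had 1.02 and 1.22 RPKM in the NC libraries and 0.309 and 0.630 RPKM in the si-circZFR libraries, RPS26P15 had 0.364, 1.02, 0.580 and 1.58 RPKM in the same order, and RPS4XP8 had 1.04, 1.59, 1.002 and 0.613 RPKM. Just outside, RPS3AP13 had 0.992, 1.27, 0.658 and 0.403 RPKM, RPL24P7 had 0.305, 2.13, 0 and 0.990 RPKM, and RPS3AP38 had 0.310, 0, 0.986 and 1.34 RPKM. The rule was met through the NC libraries only by 37 members and through the si-circZFR libraries only by 1, RPSAP41, and 352 members reached 1 RPKM in both groups. Members that met the rule in a single group had to differ between groups to some degree.

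The libraries did not give the ribosomal protein pseudogenes at an even level within the NC group. Their share of all reads was 1.14% in NC 1, 1.84% in NC 2, 0.878% in si-circZFR 1 and 0.934% in si-circZFR 2. Both NC libraries lay above both si-circZFR libraries, and NC 2 lay far above NC 1. On the log2 scale NC 2 exceeded NC 1 by a median of 0.45 over the members, with 317 of 390 higher in NC 2, by 0.62 over the 79 ribosomal protein genes and by 0.013 over all genes. Between the si-circZFR libraries the median difference of the members was -0.11.

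Set beside their parents, 41 members from 30 families had a mean RPKM above the parent's, 123 members were above 10% of the parent's and 111 were below 1%. These ratios depend on gene length, and some parents had long ones. For RPS23, with a length of 3314 bases, the members' summed RPKM was 479% of the parent's. In reads, they held a mean of 35.2% of that family. RPL13AP5, the highest member, had 1868 and 5975 RPKM in the NC libraries and 2349 and 3157 RPKM in the si-circZFR libraries. Its groups overlapped, since NC 1 was the lowest library and NC 2 the highest. RPL13A had 465, 813, 333 and 412 RPKM in the same order, so that RPL13AP5 stood at 660% of its parent over the libraries. RPL13AP5 was 99.4% identical to RPL13A and had an open reading frame of full length, whereas RPL13AP14 and RPL13AP24, at 93.9% and 90.4% identity, had means of 2.34 and 1.71 RPKM.

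The parents were listed low in some families whose pseudogenes were high. RPL27A, a large subunit protein gene, had 48.7, 54.0, 29.1 and 29.0 RPKM, with the NC libraries given before the si-circZFR libraries here and in the families that follow, and its single member RPL27AP6 had a mean of 722 RPKM, 1796% of the parent. The length found from the RPKM values was 4879 bases for RPL27A and 506 for RPL27AP6. In reads they had 2841, 3377, 1600 and 1564 against 3692, 7586, 3752 and 2519, so that the member held a mean of 64.4% of the family's reads. RPL36A, also of the large subunit, had 3.44, 1.98, 3.05 and 3.26 RPKM, while RPL36AP37, identical to it where aligned, had 144.5, 245.9, 120.8 and 164.6 RPKM. In the RPS26 family the parent had 6.01, 4.80, 4.43 and 5.98 RPKM and the identical RPS26P25 had 59.0, 28.0, 29.2 and 27.2 RPKM. In the RPL21 family the parent had 2.06, 1.25, 1.42 and 0.893 RPKM and RPL21P16 had 27.4, 34.7, 9.30 and 7.0 RPKM. In all 4 families the pseudogene was higher than its parent in every library.

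Counted in reads rather than per length, the 390 members took 33.8% of the reads of the 77 families in NC 1, 36.6% in NC 2, 34.0% in si-circZFR 1 and 33.7% in si-circZFR 2. These shares of the groups overlapped and lay close together, although the families' totals did not. The mean share over the libraries exceeded 50% in 26 of the 77 families, with a median over families of 27.9% and the highest share, 93.9%, for RPS27. RPS27 encodes a small subunit protein with a zinc finger, and its own mRNA entry had only 6.91, 10.2, 7.33 and 3.61 RPKM.

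**Figure D2:**
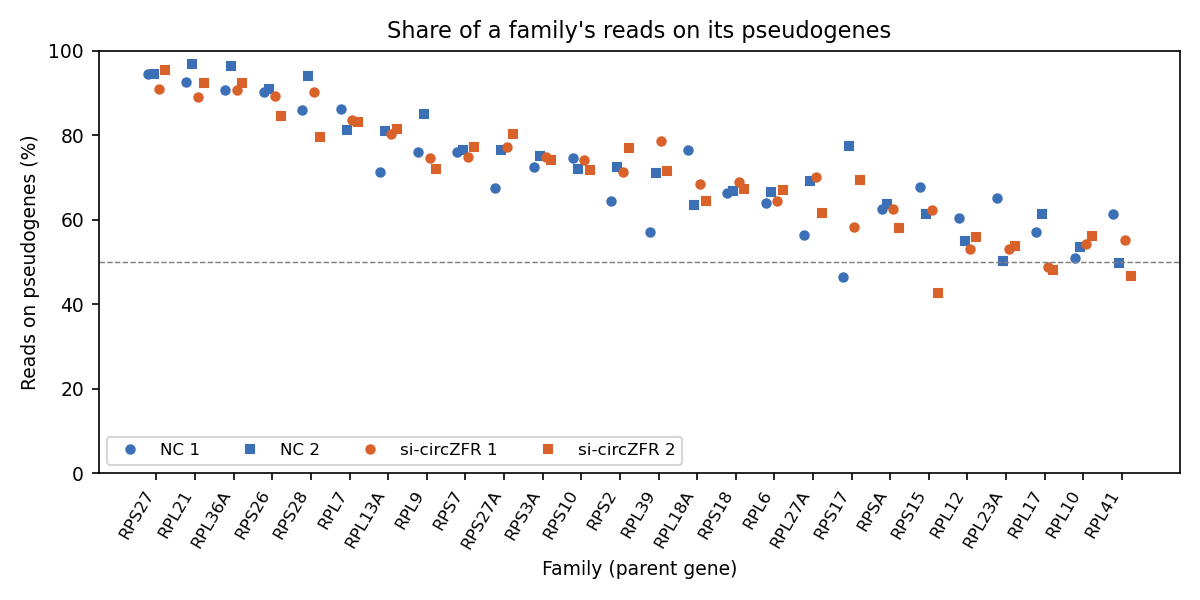
The y axis gives the share (%) of the reads of a family, parent and members together, that was counted on the members, for the 26 families with a mean share above 50% (x axis, ordered by mean share). Each family has a point for each library, NC in blue and si-circZFR in orange; the shares of RPS27, RPL21, RPL36A and RPS26 lie between 84.6% and 96.8% in every library, and in most families the groups overlap.

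The comparison of si-circZFR with NC was made to ask which transcripts change when circZFR is depleted. The files list ZFR as a single gene, circZFR itself was not analysed here, and the ZFR level was lower as well, so that a change with circZFR and a change with ZFR mRNA cannot be told apart. For it, RPKM values were scaled between libraries and tested as log2(RPKM + 1) with limma over all 13885 genes, and a gene was called at an adjusted p (Benjamini-Hochberg) under 0.05 with an absolute log2FC over 1. Fold changes on this scale understate the change of low genes. RPKM is a share of a library, so fewer transcripts and more of all other RNA cannot be told apart.

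The ribosomal protein pseudogenes were lower in the si-circZFR libraries as a group, and no single member passed the test. Of the 390 members, 366 had a negative and 24 a positive log2FC, with a median of -0.83 and quartiles of -1.11 and -0.56, beside a median of 0.0048 over all genes. None was called in either direction (limma, lowest adjusted p = 0.0656), against 0.0288% of all genes called lower and 0.0288% called higher. At an unadjusted p under 0.05, 238 members (61.0%) were lower and 2, RPS26P19 and RPL12P28, higher, where the background over all genes was 11.6% lower and 10.1% higher. Of the 37 members that met the rule through the NC libraries only, 36 are among those 238, and of the 352 members that reached 1 RPKM in both groups 202 (57.4%) were lower. The log2FC was below -1 for 145 members (37.2%), with a background of 2.63%, and above 1 for 1 member.

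For 289 members (74.1%) the si-circZFR values were both lower than the lowest NC value, for 7 both were higher than the highest, and for 94 the groups overlapped. Over all genes tested 28.1% lay apart in the lower and 28.1% in the higher direction. All 37 members that met the rule through the NC libraries only are among the 289. For the 352 members that reached 1 RPKM in both groups, 252 (71.6%) lay apart in the lower direction and the median log2FC was -0.82. Without NC 2 the members' median was -0.63, and 335 members were lower. Without NC 1 it was -1.09, and 105 members were called lower with a background of 2.30%.

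Other sets of genes give the scale of this. The 79 ribosomal protein genes, whose mRNAs share a 5' terminal oligopyrimidine (TOP) tract that ties their translation to nutrient signalling, were lower in 78 cases with a median log2FC of -0.80. The groups lay apart in the lower direction for 67 of them, and none was called by limma, 46 being lower at an unadjusted p under 0.05. A model on recovered reads called 8 of them lower, with a background of 1.14% of all genes. A filter at 1 CPM gave 2, with a background of 0.736%, and both alternatives are described below. Without NC 1 the median of the ribosomal protein genes was -1.14. RPL36A was the only ribosomal protein gene not lower, at 0.06 ± 0.22 (SE). Another 16 genes with TOP mRNAs, mostly translation factors, were all lower, with a median of -0.53 and none called. The 724 pseudogenes of other genes had a median of -0.30, with 535 lower and 47.0% apart in the lower direction. NC 2 exceeded NC 1 by a median of 0.37 over the TOP genes and 0.13 over the other pseudogenes, and without NC 2 the medians were -0.50 for the ribosomal protein genes, -0.28 for the TOP genes and -0.22 for the other pseudogenes.

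**Figure D3:**
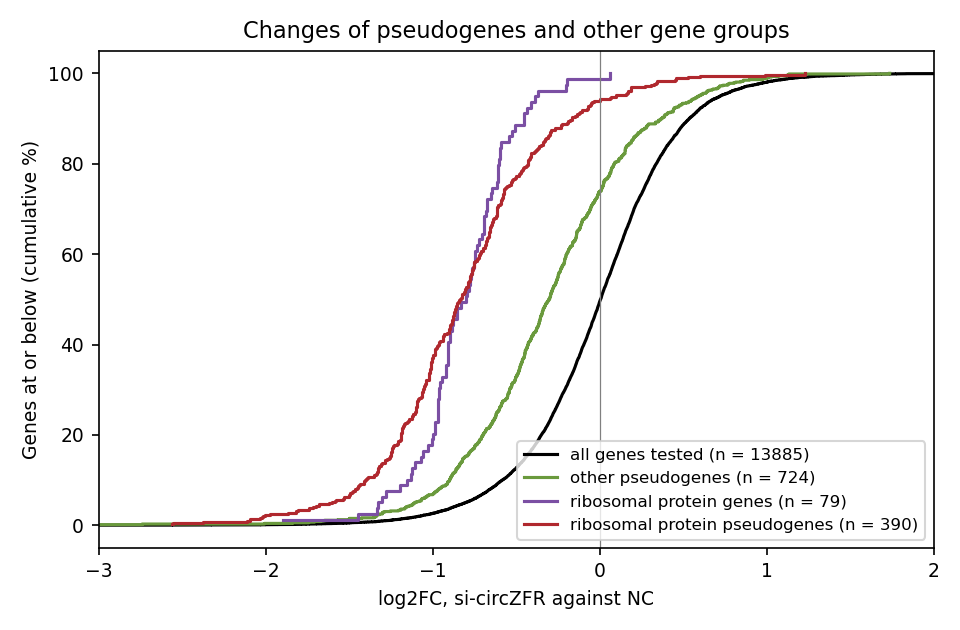
Cumulative share of genes (%, y axis) at or below a given log2FC, si-circZFR against NC (x axis), for the 390 ribosomal protein pseudogenes, 79 ribosomal protein genes, 724 other pseudogenes and all 13885 genes tested. The curves of the ribosomal protein pseudogenes and genes lie together at medians of -0.83 and -0.80, left of the other pseudogenes at -0.30 and of all genes near 0.

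Gene length moved with the change over all genes (Spearman's rho = 0.29, n = 13885), shorter genes being lower in the si-circZFR libraries, and the members were short, with a median length of 578 bases against 2678 bases over all genes. After the length trend of all genes was removed, the members' median log2FC was -0.49 and 328 were lower, and that of the ribosomal protein genes was -0.57. For the other TOP genes it was then -0.48, close to that of the members, and for the other pseudogenes -0.12. Among the members themselves, length and log2FC were unrelated (rho = -0.042, n = 390).

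Calls differed between models and filters. A model on the whole reads recovered from the RPKM values (limma-voom) gave a median of -1.05 and called 39 members lower and 0 higher, with a background of 1.14% called lower. A filter at 1 CPM (reads scaled by the library's total alone) in at least 2 libraries left 334 name matches and called 32 of them lower and 0 higher, with a background of 0.736%. With an added value of 0.1 or 0.5 in place of 1, or with a filter on mean RPKM, limma called 0 members.

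Among the 15 highest members, 9 had both si-circZFR libraries below both NC libraries. The share was 74.1% over all 390 members and 28.1% over all genes tested. RPL3P4, a fragment of RPL3 with 99.6% identity, had 953 and 1019 scaled RPKM in the NC libraries and 459 and 479 in the si-circZFR libraries. These libraries lay close together within each group and well apart between groups, with a log2FC of -1.07 ± 0.26 (SE, n = 2 per group; limma, adjusted p = 0.116). RPS2P46, a copy of RPS2, had 463, 636, 272 and 252.5 scaled RPKM (-1.05 ± 0.26, adjusted p = 0.121 by limma). RPLP0P9, a partial copy of the mRNA of the ribosomal stalk protein RPLP0, had 856, 1313, 560 and 250.5 scaled RPKM and the lowest log2FC of the 15, -1.50 ± 0.46.

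RPS2P5, the second highest member, had 883, 1358, 809 and 792 scaled RPKM, a log2FC of -0.45 ± 0.33. RPS18P5 had 762, 1514, 663 and 517 scaled RPKM and RPS7P1 had 555, 823, 333 and 371. In these 3 members the groups lay apart, but in scaled RPKM NC 1 was nearer to the si-circZFR libraries than to NC 2 in each. RPLP0P6, RPSAP58 and RPL7P9 also lay apart, with log2FC of -1.02, -0.96 and -0.78. Without NC 2 the log2FC was -0.15 for RPS2P5, -0.39 for RPS18P5, -0.65 for RPLP0P6 and -0.40 for RPSAP58. After the length trend was removed it was -0.20 for RPS2P5, -0.48 for RPL7P9 and -0.66 for RPL3P4. The groups overlapped for RPL13AP5, RPL27AP6, RPS23P8, RPLP1P4, RPS27AP16 and RPS17P16, in each of which NC 2 was the highest library.

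**Figure D4:**
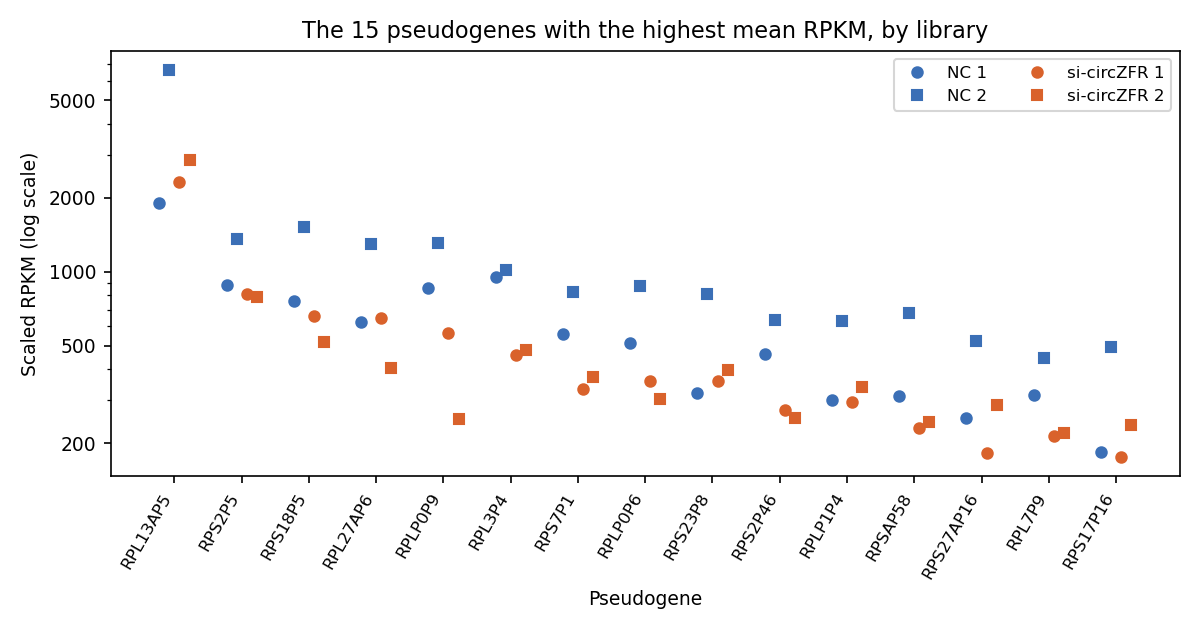
Scaled RPKM (log scale, y axis) of the 15 members with the highest mean RPKM (x axis) in each library, NC in blue and si-circZFR in orange, circles for replicate 1 and squares for replicate 2. NC 2 is the highest library for all 15, and NC 1 lies above at most 1 of the si-circZFR libraries for 6 of them.

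By identity, the closest copies had the lowest median. The median log2FC was -0.50 over 64 members under 90% identity, -0.78 over 152 members at 90% to under 95%, -0.88 over 106 at 95% to under 98% and -1.04 over 65 at 98% or more. The same classes had 79.7%, 94.7%, 98.1% and 98.5% of members with a negative log2FC. Without NC 2 the medians were -0.33, -0.65, -0.72 and -0.74, and the classes at 95% to under 98% and at 98% or more then lay close together. After the length trend was removed the medians were -0.14, -0.43, -0.54 and -0.68. The class under 90% then lay near the other pseudogenes, at -0.12. The classes also differed in level, with a median of 2.38 RPKM under 90% and 59.3 RPKM at 98% or more, and a fold change on this scale is smaller for low genes. Members with a mean of at least 5 RPKM had a median of -0.98 (n = 187), and those under 5 RPKM of -0.72 (n = 203).

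The lowest fold changes among members of at least 5 RPKM were found in 3 large and 1 small subunit families. RPL41P5, derived from RPL41, which encodes the shortest ribosomal protein, had 29.1 and 56.8 scaled RPKM in the NC libraries and 4.94 and 7.50 in the si-circZFR libraries. Its log2FC was -2.55 ± 0.35 (SE; limma, adjusted p = 0.0768). RPL41P1, of the same parent, had 76.8, 88.1, 29.3 and 11.6 scaled RPKM (-2.09 ± 0.41), and RPL41 itself a log2FC of -1.44 ± 0.30. For both copies every si-circZFR value lay far below every NC value.

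RPSAP12 had 34.2, 56.4, 11.9 and 4.81 scaled RPKM, a log2FC of -2.38 ± 0.42, and belonged to the largest family, with 18 members of RPSA, the gene of the laminin receptor that is also a small subunit protein. RPL17P7 had 42.4, 106.5, 12.9 and 16.9 scaled RPKM (-2.11 ± 0.43). RPL9P9 had 33.4, 48.6, 2.85 and 11.7 scaled RPKM (-2.56 ± 0.55), the lowest log2FC of these members. All 3 lay apart between the groups, and none passed the adjusted threshold.

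A few members went the other way. Of the 24 members with a positive log2FC, 13 had under 90% identity and 6 lay over an exon of another named gene. Their median mean level was 2.31 RPKM. Over all members, 64 of the 387 aligned had under 90% identity and 32 of 390 lay over such an exon. RPS26P19, the only member above 1, had 2.67 and 6.43 scaled RPKM in the NC libraries and 9.73 and 13.0 in the si-circZFR libraries, a log2FC of 1.23 ± 0.35 (SE; limma, adjusted p = 0.144). It is 78.98% identical to RPS26 and lies at chr2:127846731-127847080 (minus strand, GRCh38.p14) over an exon of POLR2D, which encodes a subunit of RNA polymerase II and is transcribed from the same strand. POLR2D had 3.10, 3.84, 7.87 and 9.24 RPKM and a log2FC of 0.95, so gene and pseudogene were both higher in the si-circZFR libraries, while RPS26 had a log2FC of -0.20 ± 0.18.

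RPL12P28, named after its values were seen, had 1.48, 1.72, 3.26 and 2.64 scaled RPKM, a log2FC of 0.60 ± 0.19, and lies over an exon of ANKRD16 on the same strand. ANKRD16 had a log2FC of -0.14, unlike the copy within it. The next highest members of at least 5 RPKM were RPL7P32 and RPL13P5, each at 0.17, RPL23AP65 at 0.16 and RPL5P1 at -0.04. All 4 overlapped between the groups. The signs of RPL7P32 and RPL23AP65 rested on NC 1, without which they were -0.92 and -0.66.

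The members were also split by their setting in the genome. For 32 members over an exon of another named gene the median log2FC was -0.64, with 26 lower. It was -0.85 for 146 members inside introns and -0.85 for 209 outside other genes. Of the 32, 19 lay over an exon on the same strand, 15 on the opposite strand and 2 over both. Whether counting used the strand is not given in the sources used here, so reads of the host gene cannot be told apart from reads of the member.

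Each member was then set against its parent as the log2 ratio of their levels in each library, fitted with limma over 1118 pairs of a pseudogene and its named parent. With 1 RPKM added to each level, the median change of the members was near that of their parents. The median difference in log2FC between member and parent was 0.015 (quartiles -0.29 and 0.34), with 188 members lower and 202 higher than the parent and 289 within 0.5 of it. None of the pairs was called, in a background of 0% of all pairs, with a lowest adjusted p of 0.50 for the members. At an unadjusted p under 0.05 there were 36 of the 390 members, 12 lower and 24 higher. The background, which includes them, was 74 of 1118 pairs (6.62%), and the 724 other pseudogenes gave 18 lower and 20 higher. Members of at least 5 RPKM gave 10 lower and 4 higher, and those under 5 RPKM 2 lower and 20 higher.

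The median of the pair differences hides a spread with the members' level. For members of at least 5 RPKM it was -0.12, and for those under 5 RPKM 0.12. At 98% identity or more it was -0.28 with 43 of 65 members lower than the parent, and under 90% it was 0.28 with 43 of 64 higher. The added value of 1 RPKM draws the fold changes of low members toward 0 and leaves those of high parents unchanged, and the median over all members was -0.20 in the model on recovered reads and -0.19 with an added value of 0.1.

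**Figure D5:**
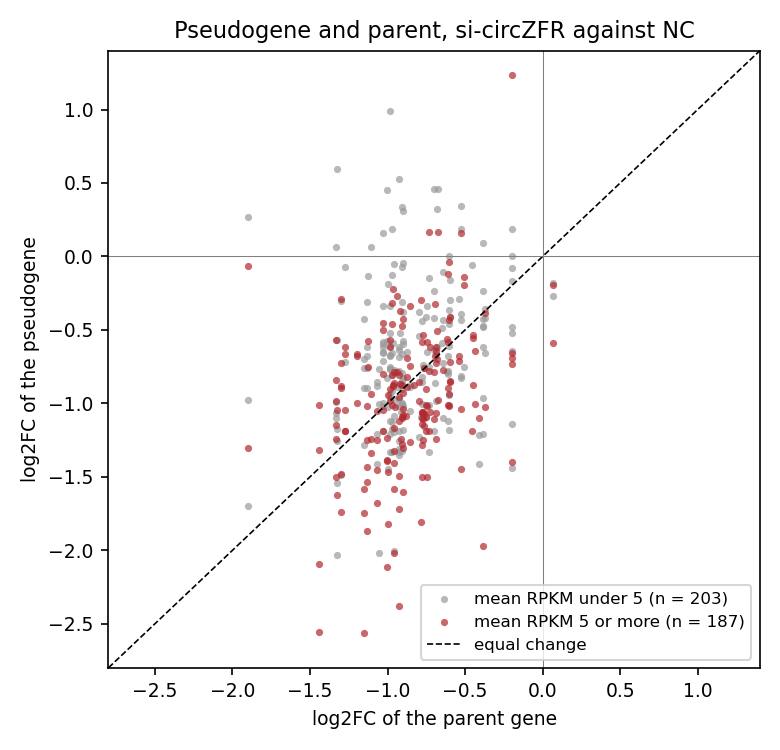
The log2FC of each member (y axis) against that of its parent (x axis), si-circZFR against NC, for 187 members with a mean RPKM of 5 or more (red) and 203 under 5 (grey). The dashed line marks equal change; most points lie below 0 on both axes and are spread on both sides of the line.

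Across the 390 members the change of the member and that of its parent were only loosely related (Pearson's r = 0.27, and 0.33 over the 187 members of at least 5 RPKM), as a description of genes that share parents and libraries. The lowest pair difference among members of at least 5 RPKM was that of RPL21P16, at -1.59 ± 0.33 (SE; limma, adjusted p = 0.50). RPL21P16 had 27.9 and 38.6 scaled RPKM in the NC libraries and 9.15 and 6.30 in the si-circZFR libraries, which lay far below, with a log2FC of -1.97 ± 0.24. Its parent RPL21, whose aligned sequence is the same, was listed at 0.893 to 2.06 RPKM, on 8 to 20 reads a library, with a log2FC of -0.39 ± 0.25 that the added 1 RPKM draws toward 0. RPS26P58, also near-identical to a parent listed low, had 5.92, 26.0, 10.1 and 1.42 scaled RPKM, with widely scattered and overlapping groups.

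The highest pair difference among those members was that of RPL39P19, at 1.83 ± 0.59 (SE; limma, adjusted p = 0.532). RPL39P19 had 15.9, 55.1, 27.3 and 29.4 scaled RPKM, with overlapping groups, whereas RPL39 had 207.9, 157.5, 49.99 and 58.6 RPKM, a log2FC of -1.90 ± 0.19. RPL39P19 is 85.4% identical to RPL39 and lies over an exon of RPL39L, an expressed paralog of RPL39, on the same strand. RPL39L had 16.7, 39.4, 21.7 and 27.6 RPKM and a log2FC of -0.24, and followed the same order of libraries as RPL39P19. RPS26P19 came next at 1.43 ± 0.41, followed by RPS3AP25 at 1.01 ± 0.39, a copy of the small subunit gene RPS3A with 96.2% identity.

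Families were alike in direction, as the members were as a whole, of which 93.8% were lower. Of the 35 families with at least 5 members, all 35 had a negative median, from -0.41 for RPL27 with 5 members to -1.33 for RPL7A with 9 members, and 256 of their 275 members were lower. The parents RPL27 and RPL7A had log2FC of -0.60 and -0.96.

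The parents with the most members were RPSA with 18, RPS2 with 16, RPS4X with 11, and RPL10, RPL31 and RPS20 with 10 each, of which RPL10 and RPL31 are described by alphabetical order. In the RPSA family 17 of 18 members were lower, from RPSAP12 at -2.38 to RPSAP41 at 0.53, beside -0.92 ± 0.36 (SE) for RPSA. RPSAP58, the highest of them, had 307 and 612 RPKM in the NC libraries and 235 and 270 in the si-circZFR libraries, which is 116% of RPSA. RPL10P16, the highest copy of RPL10, had 251, 317, 149 and 108 scaled RPKM (-1.15 ± 0.25), and RPL31P4, of RPL31, had 52.7, 70.2, 22.9 and 18.1 (-1.53 ± 0.21). Both lay apart between the groups, near their parents' -1.33 and -1.13. RPS4XP11, the highest copy of RPS4X, overlapped between the groups, with 17.0, 41.5, 17.8 and 17.2 scaled RPKM and NC 2 alone standing high.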

How the data were processed

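Total RNA of 4 libraries was sequenced on the Ion Proton system. The authors deposited RPKM values per gene for each library, with a gene type. The study's methods name alignment to hg38 and the submitters' processing notes name GRCh37; the aligner, the annotation and the treatment of reads with several matches are not given in the sources used here. Groups were taken from the sample labels. The members and gene lists were chosen with earlier results of these data known.

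Library totals and whole reads per gene were recovered from the RPKM steps, with a length found for 24282 of 24289 genes above 0 in any library (tolerance 0.001 reads), and 98.6% to 98.7% of each total lay on listed genes. For 2354 genes the annotated length gave whole reads and was used. For the others it was the shortest length that gave whole reads. The read total limits the precision, and PCR duplicates were not identified by molecular tags. RPKM values were divided by trimmed-mean scaling factors (0.983, 0.901, 1.02 and 1.11 for NC 1, NC 2, si-circZFR 1 and si-circZFR 2). The test took the genes that met the members' RPKM rule (1 RPKM or more in 2 libraries or more) as log2(scaled RPKM + 1) with limma 3.58.1 in R 4.3.3 (trended prior variance, Benjamini-Hochberg adjustment over all 13885 genes). The study's own test was edgeR after SVA, a test for deposited counts, and was not used for RPKM. Each pseudogene was paired with the gene it is named after, and the log2 ratios of 1118 pairs were fitted in the same way. Scripts were tested on simulated data. Positions came from RefSeq (GRCh38.p14), matched by name for 387 members, and identities from blastn 2.17.0 (e-value limit 1e-05) against GENCODE v44 MANE Select mRNAs; the files hold no coordinates. RPL36AP42, RPL9P9 and RPSAP58 had no match.

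The members named were the 15 with the highest mean RPKM, the 5 lowest and 5 highest in log2FC and in pair difference among those with a mean of at least 5 RPKM, the highest member of each of the 5 largest families (ties in alphabetical order), 3 on either side of the RPKM rule, and any called member, of which there was none; the members of the printed families, RPL36AP37, RPS26P25, RPSAP41, RPL12P28, RPL32P3 and RPL7P22 were named after their values were seen. Alternatives changed the scaling, the filter, the added value, the prior, the replicate block, the model and the libraries.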

Additional observations from a re-analysis of the deposited data

How the results depend on the processing

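The analysis as reported called 4 genes lower and 4 higher, no ribosomal protein pseudogene and none of the pairs of such a pseudogene and its parent. Without a filter on low values it called 0 and 0 genes, the median log2FC was -0.22 over 1183 name matches, 9 pairs were called higher and the median pair difference was 0.51. The filter on mean RPKM gave 6 lower and 7 higher genes, and the filter at 1 CPM 109 lower and 70 higher genes with 32 members lower. An added value of 0.1 gave 1 lower and 1 higher gene and a median pair difference of -0.19, and one of 0.5 gave 2 lower and 3 higher genes. With no trend in the prior variance 0 and 0 genes were called. The model on recovered reads called 158 genes lower and 141 higher, 39 members lower, and had a median pair difference of -0.20. The length correction called 8 lower and 7 higher genes, with medians of -0.49 for the members and 0.11 for the pairs. Neither other scaling, nor the adjusted p used alone, changed a count of calls by over 1.5 times, and without scaling the median of all genes shifted to 0.15 and that of the members to -0.70. The members' median stayed negative under every alternative run; the cause of the differing counts of calls was not tested. The planned edgeR and DESeq2 alternatives were not run; limma-voom was the only model run on the recovered reads.

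Libraries of the same number share only that number in the labels, and their deviations from the group means correlated at 0.069. With the number as a replicate block, 8 genes were called lower and 5 higher, among them 1 member, RPL41P5 (log2FC -2.55, limma, adjusted p = 0.0415), and no pair.

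Leaving out 1 library at a time leaves a lone sample that is assumed to vary like the other group. The counts of genes and members ran from 0 (without NC 2, si-circZFR 1 or si-circZFR 2) to 319 genes called lower and 391 higher without NC 1, from 0 to 105 members lower and from 0 to 1 higher, and from 0 to 2 pairs lower and 0 to 2 higher, with a count of 2 higher without NC 1 and of 2 without NC 2. The members' median ran from -1.09 without NC 1 to -0.63 without NC 2, and the median pair difference from -0.095 without NC 2 to 0.092 without NC 1.

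Of 555 values of 35 named pseudogenes under the alternatives, 510 kept their sign and their side of the threshold, 23 passed the threshold only in the alternative and 22 changed sign. The changes of sign came from 12 pseudogenes. Leaving out single libraries, the log2FC ran from -1.38 to 0.42 for RPL13AP5, from -1.11 to 0.23 for RPS23P8, from -1.003 to 0.063 for RPLP1P4, from -1.28 to 0.14 for RPS17P16, from -0.92 to 1.25 for RPL7P32, from -0.048 to 0.41 for RPL13P5, from -0.66 to 0.97 for RPL23AP65, from -0.78 to 0.69 for RPL5P1, from -0.94 to 0.79 for RPL39P19, from -1.14 to 0.55 for RPS3AP25, from -1.21 to 0.031 for RPS4XP11 and from -0.13 to 0.52 for RPS26P15. RPS23P8 was 0.0040 with the length correction. RPL5P1 was 0.12 without scaling, 0.0094 with upper quartile scaling and 0.19 with the length correction, and RPL39P19 was 0.10 without scaling and 0.37 with the length correction.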
